A study of Mus musculus with 2 samples.

Results

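The Cyp2 family is a large group of cytochrome P450 enzymes of the mouse liver, and its transcripts were followed here in regenerating liver of a microRNA knockout. Members were all listed genes whose symbol is Cyp2 followed by a subfamily letter and a gene number, with pseudogenes left out, which gave 49 of 34745 listed genes. Poly(A) RNA had been sequenced from the liver of male mice of 8 to 10 weeks after partial hepatectomy (PH), in which 70% of the liver was removed, and the study dates the sequenced livers to day 3. The KO library came from mice that carry the deletion of miR-182-5p on a single allele, and the WT library from mice with both alleles intact. Each genotype had 1 library, and the number of mice behind a library is not stated, so every difference below is between these libraries and has no replicate check.

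Cytochrome P450 enzymes of the Cyp2 family sit in the endoplasmic reticulum and hydroxylate drugs, steroids, fatty acids and other fat-soluble compounds, using heme and electrons passed on by a reductase. In hepatocytes, several members are induced by foreign compounds through the nuclear receptors CAR and PXR, several are set to male or female levels by growth hormone, and several are restricted to hepatocytes near the central vein or near the portal tract. Genes of a subfamily lie side by side as tandem copies, and some copies are nearly identical.

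Depth was nearly equal, with 13247497 counts for KO and 13163348 for WT, of which genes of the mitochondrial genome took 51.67% and 30.97%. Libraries were therefore compared on counts scaled with TMM, which limits the weight of the most abundant genes. A log2 fold change is KO over WT on these scaled counts, and its interval is an exact 95% binomial interval that covers counting error only. Scaling by total counts in place of TMM lowers the median of all genes from 0.00 to −0.60, so that small positive values turn negative. The deposited FPKM (reads per length of transcript and per total of reads) are scaled by total counts and are used below for levels only. Of the hepatocyte markers, albumin (Alb) had a log2 fold change of −0.07 and Hnf4a 0.05, and of the 7 markers listed, 6 were within 2-fold. The exception was Apob, which codes for the main protein of very low density lipoprotein, with 1517 counts in KO and 17808 in WT (−2.96). In bulk liver, fewer cells of a type and less RNA per cell cannot be told apart.

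The microRNA is shown first, with its seed, the bases 2 to 8, in capitals. Direct repression of a transcript through its 3′ UTR would be read through this seed. The locus is chr6:30165962-30165986 on the minus strand (RefSeq, GRCm38.p6).
mmu-miR-182-5p: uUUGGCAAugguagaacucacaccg
The match to this seed in a transcript is UUGCCAA. None of the 32 members with at least 10 counts and an annotated 3′ UTR held this word there, whereas 10.5% of 12378 genes with that many counts did. The members' 3′ UTRs are short, with a median of 280 bases against 930, and among the 10191 genes in the members' range of lengths, 60 to 2688 bases, the share was 7.33%. The missing match says only that these letters are not in the annotated 3′ UTR. For Cyp7a1, a P450 gene outside this family, the study reports that the microRNA acts on the promoter. Promoters of the members were not searched for a match to the microRNA.

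Of the 49 genes, 33 had at least 10 counts over both libraries and were compared. Of these, 7 were at least 2-fold lower in KO (21.21%) and 1 was at least 2-fold higher (3.03%), while 25 differed by less. Among all 13561 genes with as many counts, 9.94% were at least 2-fold lower and 9.46% at least 2-fold higher. The 7 lower members were Cyp2b10, Cyp2c29, Cyp2c38, Cyp2c40, Cyp2c55, Cyp2c69 and Cyp2g1, and the higher member was Cyp2j9. The median of the members was 0.05 against 0.00 for all genes with TMM, and −0.55 against −0.60 with total counts, so the family as a whole sat at the level of the other genes on either scale. The sign of 13 of the 33 members, all of them positive under TMM, changes with total counts.

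Most of the differing genes were among the less abundant members. The 15 members with at least 1000 counts in the higher library had log2 fold changes of −1.46 to 0.39 with a median of 0.07, and 1 of them, Cyp2c29, was at least 2-fold lower. Of all 1311 genes at that depth, 5.57% were at least 2-fold lower and 4.96% higher. Of the 18 members below 1000 counts, 6 were lower and 1 was higher, with a median of −0.27, against 10.4% lower and 9.94% higher among 12250 genes.

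**Figure D1:**
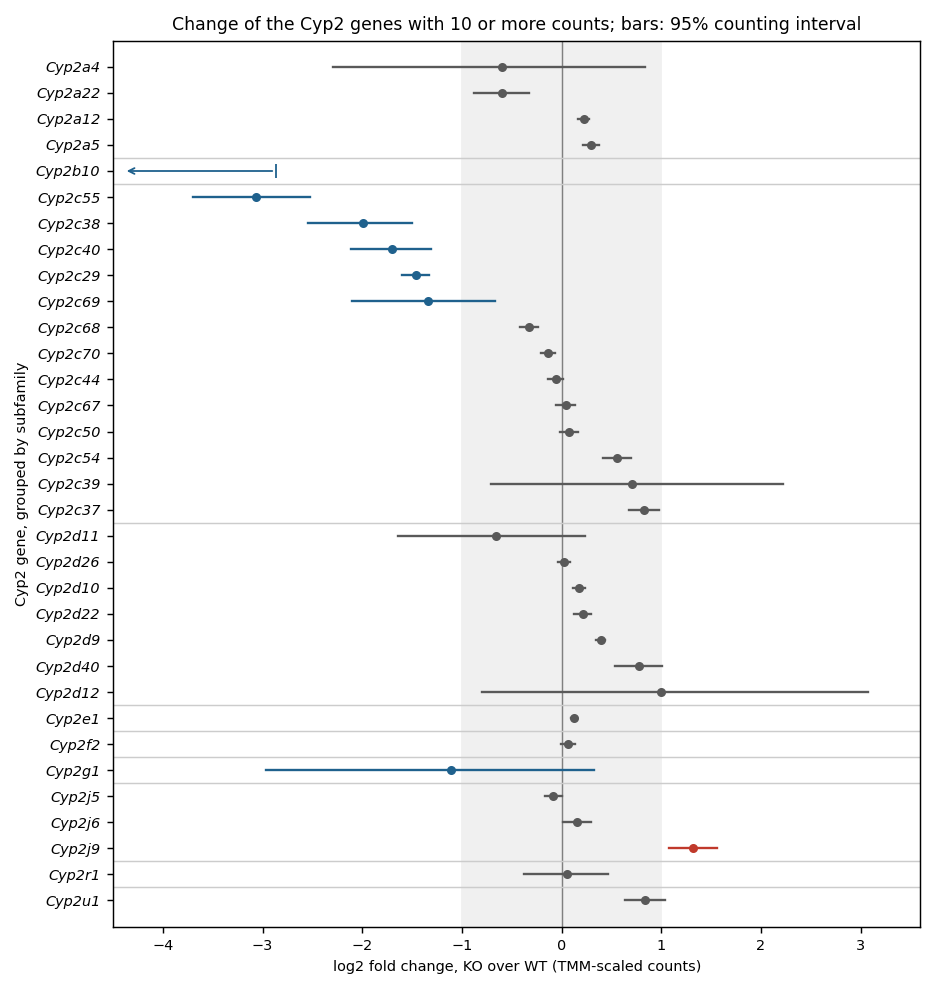
Log2 fold change (KO over WT, TMM-scaled counts, x axis) of the 33 Cyp2 genes with at least 10 counts (y axis, by subfamily), with 95% counting intervals as bars and the range under 2-fold shaded. The 7 lower genes are blue and Cyp2j9 is red; the arrow of Cyp2b10, at 0 counts in KO, starts at the bound set by 3 counts. Of the 13 Cyp2c genes, 5 lie to the left of the shaded range.

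In total the family held 56586 counts in KO and 79419 in WT. This was 0.427% of all counts in KO (0.424% to 0.431%, exact Clopper-Pearson) and 0.603% in WT (0.599% to 0.608%). Outside the mitochondrial genome, the shares were 0.884% (0.877% to 0.891%) and 0.874% (0.868% to 0.880%). The lower share in KO was therefore not seen once the mitochondrial counts were set aside.

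Levels per length were led by the same genes in both libraries. Cyp2e1, which oxidizes ethanol and acetaminophen, stood highest with 508 FPKM in KO and 708 in WT, from 12292 and 17020 counts. The next in order were Cyp2d9, Cyp2d26, Cyp2d10 and Cyp2c44 in either library, and the genes of rank 6 to 9 were Cyp2f2, Cyp2c70, Cyp2a12 and Cyp2c68 in KO, in an order that differed slightly in WT. With 1 library each, there is no spread by which to say which neighbours in this order differ. At least 10 FPKM were reached by 18 members in KO and 20 in WT, and at least 1 FPKM by 25 and 28. Cyp2e1 made up 21.72% of the family's counts in KO and 21.43% in WT.

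**Figure D2:**
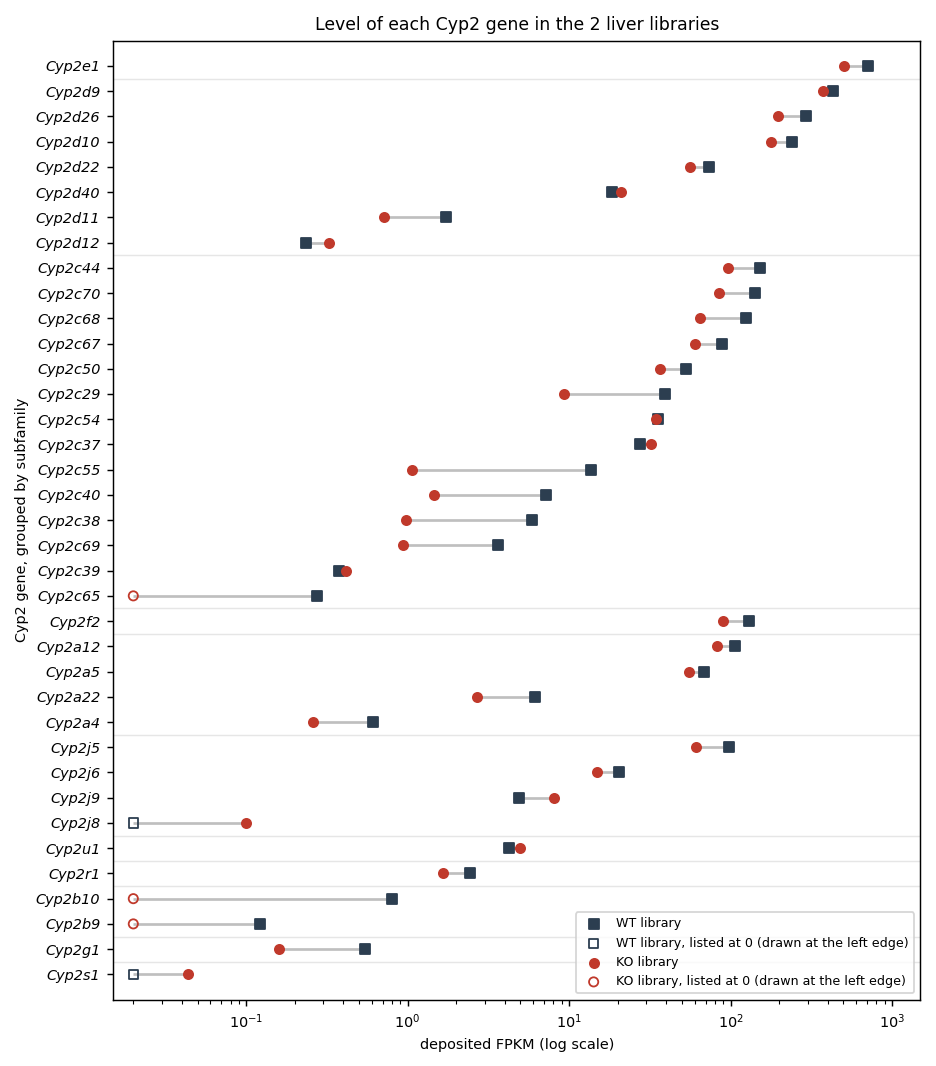
Deposited FPKM (x axis, log scale) of every Cyp2 gene with a count in either library (y axis, by subfamily), KO as red circles and WT as dark squares, with open symbols for a library in which the gene is listed at 0. Cyp2e1 is highest at 508 FPKM in KO and 708 in WT, and the widest gaps among genes above 1 FPKM in either library are those of Cyp2c55, Cyp2c38, Cyp2c40 and Cyp2c29.

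The Cyp2c genes, which act on drugs and on arachidonic acid, had 15 listed members, 13 with at least 10 counts. Of these, 5 were at least 2-fold lower in KO and none was higher, against 9.94% and 9.46% of all genes. The values of Cyp2c40 and Cyp2c69, among the 5, depend on how reads were divided among copies. The subfamily median was −0.13, and its summed counts, 12093 in KO and 20416 in WT, gave a log2 fold change of −0.16 (−0.20 to −0.13). Under TMM, Cyp2c55, Cyp2c29 and Cyp2c38 thus stood apart within a subfamily whose sum differed little, while Cyp2c40 and Cyp2c69 are uncertain. With total counts the subfamily median was −0.74, against −0.60 for all genes.

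Cyp2c55 (ENSMUSG00000025002, chr19:39007019-39042693, plus strand), a gene induced through CAR and PXR, had 28 counts in KO and 358 in WT, or 1.06 and 13.6 FPKM. It was 8.38-fold lower in KO, with a log2 fold change of −3.07 (−3.69 to −2.53). Cyp2c38 (ENSMUSG00000032808, chr19:39389556-39463075, minus strand), which is higher in female than in male liver, had 37 counts in KO and 224 in WT, or 0.974 and 5.93 FPKM. It was 3.98-fold lower, at −1.99 (−2.55 to −1.50). For both genes the whole counting interval lies past 2-fold.

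Cyp2c29 (ENSMUSG00000003053, chr19:39269405-39330713, plus strand), a pericentral gene and a known target of CAR, was the most abundant of the lower members. It had 521 counts in KO and 2168 in WT, or 9.37 and 39.2 FPKM, and was 2.76-fold lower at −1.46 (−1.61 to −1.33). Its listed span overlaps the pseudogene Cyp2c53-ps on the same strand, on which no read was counted in either library. Cyp2c40 (ENSMUSG00000025004, chr19:39767071-39812814, minus strand), a female-biased gene, had 64 counts in KO and 315 in WT, or 1.45 and 7.19 FPKM, and was 3.25-fold lower at −1.70 (−2.12 to −1.32). Cyp2c69, also female-biased, had 22 and 85 counts and a log2 fold change of −1.34 (−2.11 to −0.67), an interval that reaches below 2-fold.

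The other abundant Cyp2c genes differed by less than 2-fold, and they lay on either side of 0 under TMM. Cyp2c37 had 776 counts in KO and 659 in WT, or 32.1 and 27.4 FPKM, with a log2 fold change of 0.83 (0.68 to 0.98), the highest of the subfamily. Cyp2c54 had 808 and 828 counts, or 34.5 and 35.6 FPKM, at 0.56 (0.42 to 0.70), and −0.04 with total counts. Cyp2c50 had 1705 and 2440 counts, or 36.7 and 52.9 FPKM, at 0.08 (−0.01 to 0.17), and −0.53 with total counts. These genes are, like Cyp2c29, pericentral. Cyp2c37 and Cyp2c54 stood on the other side of 0 from it under TMM, while the interval of Cyp2c50 includes 0. The proteins of Cyp2c37, Cyp2c50 and Cyp2c54 are 91.2% to 94.5% identical, so how reads were divided among these copies is uncertain. Summed, they had 3289 and 3927 counts, at 0.34 (0.27 to 0.40), and −0.27 with total counts. Cyp2c67 had 1384 and 2030 counts, or 60.3 and 89.0 FPKM, at 0.04 (−0.06 to 0.14). Cyp2c68 had 1486 and 2812 counts, or 65.1 and 124 FPKM, at −0.33 (−0.42 to −0.24). The remaining pair is more distant in sequence from these copies. Cyp2c70, which in mice makes muricholic acids from bile acids, had 2759 and 4566 counts, or 84.7 and 141 FPKM, at −0.13 (−0.20 to −0.07). Cyp2c44, an arachidonic acid epoxygenase, had 2493 and 3915 counts, or 95.8 and 151 FPKM, at −0.06 (−0.13 to 0.01). The lowest counts were those of Cyp2c39 (10 in KO and 9 in WT), Cyp2c65 (0 and 7) and Cyp2c66 (0 in both).

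Along the chromosome the lower genes lay in 2 places. Read assignment is uncertain for those of the second, Cyp2c40 and Cyp2c69, and for their copies Cyp2c67 and Cyp2c68, which lie between the places. From Cyp2c55, 14 genes start within 1146 kb, and Cyp2c44 lies apart at 4998 kb. Cyp2c55, Cyp2c29 and Cyp2c38 start at 0, 262 and 382 kb, with the nearly unread Cyp2c65 and Cyp2c66 among them. Cyp2c39, with 10 and 9 counts at 0.71 (−0.71 to 2.22), comes next at 504 kb. Cyp2c67 and Cyp2c68 follow at 602 and 682 kb without a 2-fold difference, and Cyp2c40 and Cyp2c69 at 760 and 836 kb are lower again. The last 4 genes, Cyp2c37, Cyp2c54, Cyp2c50 and Cyp2c70, were within 2-fold.

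**Figure D3:**
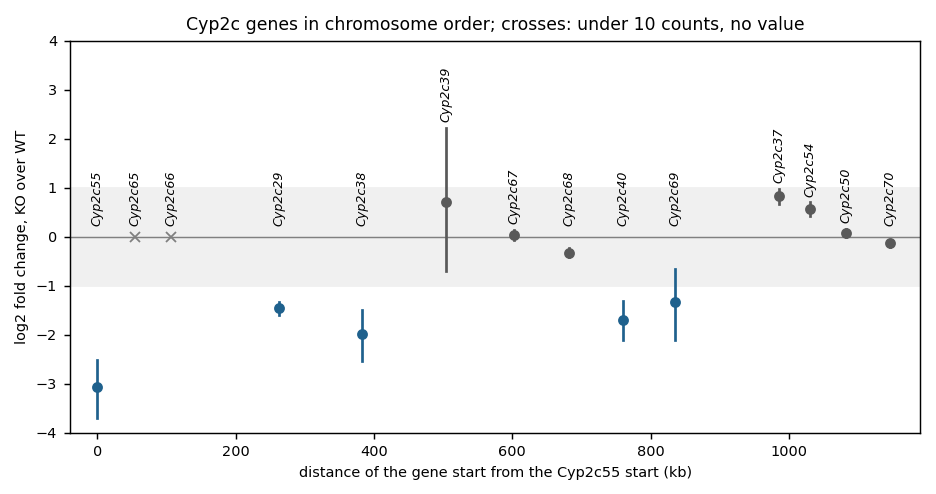
Log2 fold change (KO over WT, TMM-scaled counts, y axis) of the 14 clustered Cyp2c genes against the distance of each gene's lower coordinate from that of Cyp2c55 (x axis, kb), with 95% counting intervals as bars, crosses at 0 for genes with fewer than 10 counts and the range under 2-fold shaded. The 5 lower genes, in blue, lie at 0, 262, 382, 760 and 836 kb, and the genes between them were within 2-fold or had fewer than 10 counts.

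How far a read can be given to one copy differs among the lower genes. Of the 51-base words in the transcript of Cyp2c55, 0.46% occur in another gene's transcripts, and the shares were 1.96% for Cyp2c29, 7.09% for Cyp2c38, 9.76% for Cyp2b10 and 5.69% for Cyp2g1. For Cyp2c40 and Cyp2c69 the shares were 71.53% and 54.26%, and for their copies Cyp2c67 and Cyp2c68 they were 52.14% and 42.53%. The proteins of these 4 genes are 93.9% to 97.2% identical to one another. The sequence that separates these copies is sparse, with 66 variable positions in 1563 aligned coding bases and an identical run of 113 bases. The stretch of 60 coding bases below holds 8 of these positions, given in capitals (GENCODE M21 transcripts).
Cyp2c40: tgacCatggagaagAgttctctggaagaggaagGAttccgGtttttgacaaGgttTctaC
Cyp2c67: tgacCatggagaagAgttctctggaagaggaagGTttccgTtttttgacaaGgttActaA
Cyp2c68: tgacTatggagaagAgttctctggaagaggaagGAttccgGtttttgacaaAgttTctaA
Cyp2c69: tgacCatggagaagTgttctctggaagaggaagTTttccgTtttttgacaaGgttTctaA
Summed over these 4 genes, 2956 counts in KO stood against 5242 in WT, at −0.23 (−0.30 to −0.17). The values of all 4 genes, Cyp2c67 and Cyp2c68 included, therefore rest on how reads were divided among the copies, and are uncertain.

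Cyp2c38 and Cyp2c39 are 92.0% identical in protein, yet they differ at 85 of 1473 aligned coding positions, and 11 of these fall in the 60 bases shown, in capitals.
Cyp2c38: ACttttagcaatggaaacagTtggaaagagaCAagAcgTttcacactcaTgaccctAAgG
Cyp2c39: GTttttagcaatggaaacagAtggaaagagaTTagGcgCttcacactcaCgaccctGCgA
Their sum was 47 counts in KO and 233 in WT, at −1.72 (−2.20 to −1.26), so the pair remained more than 2-fold lower together. Summing each set of copies at 90% identity or more left 24 units, and leaving those genes out left 18 members. The first of these gave 5 lower units and 1 higher, and the second 4 lower members and 1 higher.

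Promoters were to be shown for members at least 2-fold apart with at least 100 counts in the higher library. The 4 lower Cyp2c genes that met this rule are given below. Cyp2j9 met it too and was left out, because its window overlaps an annotated exon. The start used for Cyp2c29 lies inside its listed span. Each line is the 160 bases before the RefSeq start (GRCm38.p6), written in the direction of the gene. Capitals mark AGGTCA, the word bound by nuclear receptors such as CAR and PXR, and TATAAA, the TATA word. The windows are chr19:39006859-39007018 (plus strand), chr19:39286925-39287084 (plus), chr19:39463076-39463235 (minus) and chr19:39812815-39812974 (minus).
Cyp2c55: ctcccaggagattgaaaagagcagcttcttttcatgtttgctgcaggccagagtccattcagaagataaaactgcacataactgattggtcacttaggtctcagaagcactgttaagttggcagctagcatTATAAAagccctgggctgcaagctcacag
Cyp2c29: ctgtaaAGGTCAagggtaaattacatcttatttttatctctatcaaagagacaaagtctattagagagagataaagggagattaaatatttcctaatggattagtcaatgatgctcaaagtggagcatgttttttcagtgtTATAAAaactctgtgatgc
Cyp2c38: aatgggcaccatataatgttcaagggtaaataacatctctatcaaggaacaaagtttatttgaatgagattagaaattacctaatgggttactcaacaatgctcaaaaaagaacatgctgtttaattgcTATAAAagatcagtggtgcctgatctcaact
Cyp2c40: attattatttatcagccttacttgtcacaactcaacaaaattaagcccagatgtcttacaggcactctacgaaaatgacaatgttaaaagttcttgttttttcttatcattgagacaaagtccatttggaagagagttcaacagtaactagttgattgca
The words were sought in the 250 bases before and 50 after the start of 41 members with a RefSeq entry. AGGTCA or its reverse complement was found in 12 of the 41 and in 16.26% of 32851 promoters, and of the 6 lower genes with an entry it was in Cyp2c29 alone, at −154 to −149 from the start. The word TTCNNNGAA, bound by STAT5 and sought on both strands, was in 2 members, Cyp2j11 and Cyp2j12, which had no counts, and in 8.298% of all promoters. The words TTATGTAA and TTACGTAA, bound by Dbp and its relatives and sought on both strands, were in no member and in 1.056% of promoters. TATAAA on the gene's own strand, a word added after the promoters had been read, was in 15 of 41 members and in 8.319% of all promoters. It was in 5 of the 6 lower genes and in 8 of the 20 members that differed by less than 2-fold. In the lower genes Cyp2c40 and Cyp2c69 the word lies after the RefSeq start, at 41 to 46 and 11 to 16. A word found in these windows is a description of the sequence and not a binding site.

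The Cyp2b genes, the classical targets of CAR, were nearly unread. Cyp2b10 (ENSMUSG00000030483, chr7:25897620-25926624, plus strand) had 0 counts in KO and 33 in WT, where it reached 0.805 FPKM. Against the 3 counts that a count of 0 allows in the KO library, and with the WT count taken as exact, it was at least 7.30-fold lower. The exact interval, which also covers the counting error of the WT library, ends at a log2 fold change of −2.49. Cyp2b9 had 0 and 3 counts, and Cyp2b13, Cyp2b19 and Cyp2b23 had 0 in both libraries. The level of Cyp2b10 in WT was itself low for liver P450 genes.

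The higher gene belonged to the Cyp2j subfamily of arachidonic acid epoxygenases, of which 3 of 8 members had at least 10 counts. Cyp2j9 (ENSMUSG00000015224, chr4:96568429-96591578, minus strand) had 370 counts in KO and 224 in WT, or 8.03 and 4.89 FPKM. It was 2.49-fold higher in KO under TMM, at 1.31 (1.07 to 1.56), and at 0.71 with total counts, under 2-fold. No 51-base word of its transcript occurs in another gene. The other Cyp2j genes with at least 10 counts were within 2-fold. Cyp2j6 had 714 and 967 counts, or 15.0 and 20.4 FPKM, at 0.15 (0.01 to 0.30), and −0.45 with total counts. Cyp2j5 had 1888 and 3014 counts, or 60.8 and 97.6 FPKM, at −0.08 (−0.17 to 0.00).

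The Cyp2d genes, which in rodents metabolize many drugs and steroids, were the subfamily with the most counts, 18759 in KO and 23982 in WT, and none of 7 differed by 2-fold. Their summed log2 fold change was 0.24 (0.21 to 0.27) under TMM, and their median 0.21 turned to −0.39 with total counts. Cyp2d9, the male-biased testosterone hydroxylase, had 8164 and 9379 counts, or 373 and 432 FPKM, at 0.39 (0.35 to 0.44), and −0.21 with total counts. Cyp2d26 had 4290 and 6365 counts, or 197 and 294 FPKM, at 0.02 (−0.03 to 0.08). Cyp2d10 had 3896 and 5222 counts, or 179 and 241 FPKM, at 0.17 (0.11 to 0.23). These 3 genes are the most abundant of the subfamily, and all lay within 2-fold. Cyp2d22 had 2066 and 2692 counts, or 56.3 and 73.8 FPKM, at 0.21 (0.13 to 0.29). Cyp2d40 had 321 and 283 counts, or 20.9 and 18.5 FPKM, and the highest value of the subfamily among genes with at least 100 counts, 0.77 (0.54 to 1.01). Cyp2d11, with 15 and 36 counts, was at −0.66 (−1.65 to 0.23), and −1.24 with total counts, past 2-fold. Its protein is 91.3% identical to that of the far more abundant Cyp2d10, so how reads were divided between these copies is uncertain. Summed, Cyp2d10 and Cyp2d11 had 3911 and 5258 counts, at 0.17 (0.11 to 0.23). Cyp2d12, with 7 and 5 counts at 0.99 (−0.79 to 3.08), lay just inside 2-fold, and Cyp2g1, with 5 and 17 counts at −1.11 (−2.97 to 0.32), just outside it, so counting error alone spans the threshold for both.

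The Cyp2a genes, whose best known product Cyp2a5 hydroxylates coumarin, showed no 2-fold difference in 4 genes. Cyp2a12 had 4759 and 6155 counts, or 82.5 and 107 FPKM, at 0.22 (0.17 to 0.28), and −0.38 with total counts. Cyp2a5 had 2305 and 2834 counts, or 55.2 and 68.3 FPKM, at 0.29 (0.21 to 0.37), and −0.31 with total counts. Cyp2a22 had 159 and 363 counts, or 2.69 and 6.18 FPKM, at −0.60 (−0.88 to −0.33), and −1.20 with total counts, past 2-fold. Cyp2a12 and Cyp2a22 share 94.3% of their protein sequence and summed to 4918 and 6518 counts, at 0.19 (0.13 to 0.24). Cyp2a4, female-biased and 97.6% identical to Cyp2a5, had 6 and 14 counts.

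Among the single-gene subfamilies, abundant members were close to 0. Cyp2e1 was at 0.12 (0.09 to 0.16), and −0.48 with total counts. Cyp2f2, a marker of periportal hepatocytes that also activates naphthalene in the lung, had 2687 and 3869 counts, or 90.03 and 130 FPKM, at 0.07 (−0.01 to 0.14), and −0.54 with total counts. Cyp2u1, a fatty acid hydroxylase, had 462 and 390 counts, or 4.98 and 4.23 FPKM, at 0.84 (0.64 to 1.03), and 0.23 with total counts. Cyp2u1 and Cyp2f2 each overlap a listed gene on the opposite strand, with 10 and 0 counts and with 22 and 14 counts in KO and WT. Cyp2r1, the vitamin D 25-hydroxylase, had 81 and 118 counts, or 1.66 and 2.43 FPKM, at 0.05 (−0.38 to 0.47).

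Not compared were 16 members with fewer than 10 counts, of which 12 had no count in either library. These 12 were Cyp2ab1, Cyp2b13, Cyp2b19, Cyp2b23, Cyp2c66, Cyp2d34, Cyp2j7, Cyp2j11, Cyp2j12, Cyp2j13, Cyp2t4 and Cyp2w1. The other 4 were Cyp2b9, Cyp2c65, Cyp2j8 with 2 and 0 counts, and Cyp2s1 with 4 and 0. Of 8 members known mainly from tissues other than liver, Cyp2g1 of the olfactory mucosa was the only gene with at least 10 counts. At this depth a count of 0 allows up to 3 counts in a library.

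Grouped by known regulation, the lower genes all fell in a pair of lists. The lists were chosen with earlier results of these data known, so their shares are a description and not a test. Of 9 female-biased members, 7 had at least 10 counts and 5 of these were at least 2-fold lower in KO, with a median of −1.34, while none was higher, against 9.94% lower and 9.46% higher among all genes. Of the 5, Cyp2c40 and Cyp2c69 belong to the set of 4 copies that summed to −0.23, and the interval of Cyp2g1 reaches 0.32. The exceptions were Cyp2a4 at −0.60, which reaches −1.17 with total counts, and Cyp2c39 at 0.71 (−0.71 to 2.22). The whole list held 144 counts in KO and 700 in WT, a small share of the family in these male livers. The male-biased members Cyp2d9 and Cyp2u1 did not differ by 2-fold. Of 5 members induced through CAR and PXR, 3 were lower, Cyp2c55, Cyp2c29 and Cyp2b10, against 9.94% of all genes. Not lower were Cyp2a5 at 0.29 and Cyp2c37 at 0.83, the latter in a set of 3 copies that summed to 0.34. The list median was −1.46, and −0.57 with a minimum of 50 counts, which leaves out Cyp2b10. Of 6 pericentral members, Cyp2c29 alone was lower, and the median was 0.21 under TMM and −0.39 with total counts. Cyp2b10 is in the female-biased and in the CAR and PXR list, so the lists overlap.

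The enzymes that supply electrons and heme to P450 showed no 2-fold difference in either direction. Por, the reductase that passes electrons to all microsomal P450, had 1200 counts in KO and 2803 in WT, at −0.63 (−0.73 to −0.53), and −1.23 with total counts, past 2-fold. Cyb5a, a further electron donor, was at −0.31 (−0.36 to −0.27), Cyb5r3 at −0.08 and Pgrmc1 at 0.11. Of 8 genes of heme synthesis none passed 2-fold, with a median of −0.08. Alas1, the rate-limiting enzyme, had 2631 and 2921 counts at 0.44 (0.36 to 0.52), and −0.16 with total counts. The 4 genes of heme breakdown had a median of −0.16, also without a 2-fold difference.

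Of 24 regulators of P450 genes, 23 had at least 10 counts, 3 were at least 2-fold higher and 2 lower, with a median of 0.16, and −0.44 with total counts. These counts are near the 9.46% and 9.94% of all genes. CAR (Nr1i3) had 1028 counts in KO and 1809 in WT, at −0.22 (−0.33 to −0.11), and PXR (Nr1i2) 610 and 1055 counts, at −0.20 (−0.34 to −0.05). With total counts CAR was at −0.82 and PXR at −0.80, so the mRNA of both was within 2-fold on either scale. The activity of these receptors was not measured, and their part in the values of Cyp2b10, Cyp2c29 and Cyp2c55 was not tested. Dbp, a circadian activator that also acts on Cyp2 genes, had 462 and 62 counts and stood highest at 3.48 (3.11 to 3.90). Onecut1, which acts with growth hormone signals on sex-biased genes, had 182 and 67 counts at 2.02 (1.62 to 2.46), and Nr0b2, a corepressor induced by bile acids, 238 and 123 counts at 1.54 (1.22 to 1.87), or 0.94 with total counts. Bcl6, a male-biased repressor of female-biased genes, had 219 and 705 counts at −1.09 (−1.32 to −0.87). Arnt, the partner of the Ah receptor, had 26 and 200 counts at −2.33 (−3.00 to −1.76). Stat5b was at 0.16 and Hnf4a at 0.05, and Cux2, a female-specific repressor, had 4 and 5 counts.

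**Figure D4:**
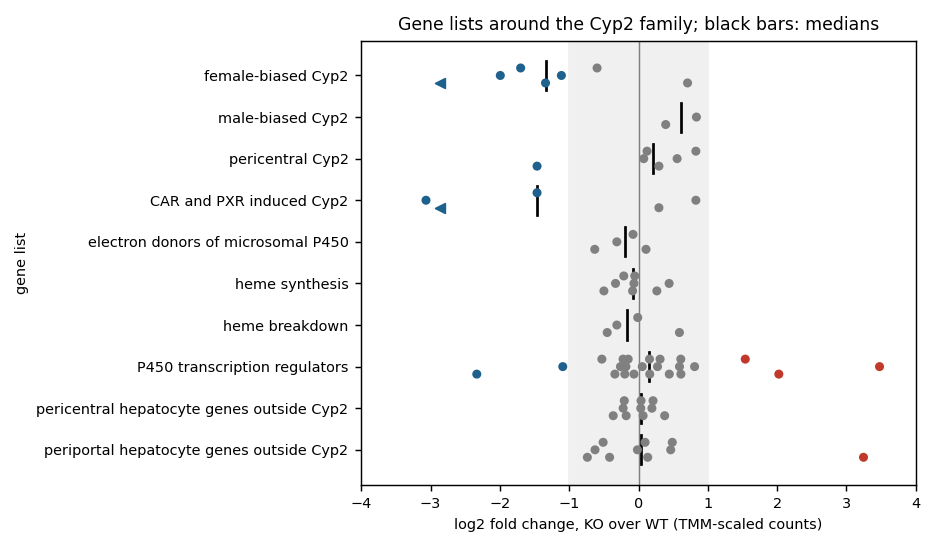
Log2 fold change (KO over WT, TMM-scaled counts, x axis) of the genes in each list (y axis; lists with at least 2 genes of 10 or more counts), each point a gene, with the list median as a black bar, the range under 2-fold shaded, and triangles for Cyp2b10 at the bound set by 3 counts in KO. The female-biased list has its median at −1.34 and the CAR and PXR list at −1.46, while the other medians lie between −0.20 and 0.61.

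Genes of the same zones outside the family were mostly within 2-fold. None of 10 pericentral genes passed 2-fold, with a median of 0.03, and of 10 periportal genes 1 did, Sult5a1 with 620 and 98 counts at 3.25 (2.94 to 3.58), with a median of 0.04. Their values turn to medians of −0.56 each with total counts. Markers of other liver cells differed between the libraries in part. Their sums are in FPKM, which are scaled by total counts, so that the sums of all 7 marker lists, hepatocytes included, are lower in KO. All 6 markers of Kupffer cells and macrophages were below 0, at −1.15 to −0.23, with 37.9 FPKM in KO and 80.6 in WT in sum, and 2 were at least 2-fold lower. The 6 sinusoidal endothelial markers, at −2.78 to 0.01, summed to 8.2 and 16.7 FPKM, the 6 stellate cell markers, at −0.89 to 0.35, to 6.20 and 12.04 FPKM, and the 7 hepatocyte markers to 20276 and 29576 FPKM. Of 5 cholangiocyte markers 2 were higher, at low counts, and their sums were 25.7 and 29.7 FPKM. The 4 neutrophil markers, at 0.00 to 0.64, summed to 35.2 and 47.8 FPKM, and of 6 lymphocyte markers 2 had at least 10 counts, with Cd79a, at 12 and 4 counts, 2-fold higher or more. None of the stellate or neutrophil markers and 1 endothelial marker passed 2-fold. The part of these cells in the Cyp2 values was not tested. Transcript length did not separate the lower members from the rest, with a median of 1916 bases in the 7 lower and 1828 in the other 26 members.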

How the data were processed

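The authors sequenced poly(A) RNA of mouse liver and deposited raw, unscaled read counts of each gene and FPKM for 1 KO and 1 WT library. The submitters' processing notes name HISAT2 2.0.4, StringTie, edgeR and the human build hg38. The identifiers are mouse Ensembl genes, and 36 of 49 members have the same coordinates in GENCODE M21 (GRCm38), so the listed coordinates were printed as mouse. Count divided by FPKM differed by a factor of 1.0061 to 1.0067 from library to library (totals: 1.0064), so the deposited FPKM are scaled by total counts. Authors' comparisons between the libraries were not used. No level of the targeted microRNA was used. The labels give the genotypes only as KO and WT, and the deletion on a single allele is taken from the study's description of its mice.

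Counts were scaled by TMM (factors 0.812 for KO and 1.23 for WT) in edgeR 4.0.16 (R 4.3.3). Genes that reached 10 counts in sum were compared, with a prior count of 0.5. A gene was called at 2-fold, without a p-value. Intervals are exact 95% binomial intervals and the floor is 3 counts. Protein identity came from translated GENCODE coding sequences, and shared sequence from 51-base words. Sequences are RefSeq's and GENCODE's. Promoters were matched for 41 of 49 members. The steps were tested on simulated data. Alternatives were total counts with and without mitochondrial genes, DESeq2 1.42.0 size factors, upper quartile factors, log2 FPKM (pseudocount 0.1), a prior count of 5, minimums of 1 and 50 counts, other folds, and summing or leaving out near-identical copies. Members with at least 100 counts in the higher library are given in full. The seed match, the TATA word and transcript length were looked at only once the values were known. Members and lists were chosen with earlier results of these data known. Python 3.11.15, pandas 2.3.3, scipy 1.17.1, biopython 1.88 and matplotlib 3.10.9 were used.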

Additional observations from a re-analysis of the deposited data

How the results depend on the processing

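No paired analysis was possible because the genotypes had 1 library each, and no replicate could be left out. Of the 7 lower members, 7 stayed at least 2-fold lower under total counts, total counts without mitochondrial genes, DESeq2 size factors, upper quartile factors and FPKM, and 6 with a prior count of 5. The members at least 2-fold higher numbered 0 with total counts, with FPKM and at 4-fold, 3 with a minimum of 1 count and 6 at 1.5-fold. The lower members numbered 2 at 4-fold, 4 without near-identical copies, 10 with total counts and at 1.5-fold, and 9 with FPKM and with a minimum of 1 count. The share of all genes called was computed with TMM at 2-fold only, so these counts have no such share beside them. They describe the settings and are not a result about the family. The family median was −0.55 with total counts and −0.53 with FPKM. With total counts and FPKM the medians were −0.77 and −0.68 for Cyp2a, −0.74 and −0.74 for Cyp2c, −0.39 and −0.39 for Cyp2d, and −0.45 and −0.44 for Cyp2j, which was 0.72 with a minimum of 1 count. The median of all genes was lowered to a like degree, −0.60 with total counts and −0.54 with FPKM. The share of counts outside the mitochondrial genome was 0.884% in KO and 0.874% in WT. The sign changed for 13 of 33 members with total counts, for 5 with total counts without mitochondrial genes, and for 0 with DESeq2 size factors or upper quartile factors. Depth limits the genes under 100 counts most, as for Cyp2g1 and Cyp2c69.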

Other observations

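Of 8 listed Cyp2 pseudogenes, 2 had counts. Cyp2d37-ps, which was picked out with its values in view, had 370 counts in KO and 264 in WT, a log2 fold change of 1.08 (0.85 to 1.31), and 0.48 with total counts. Cyp2d41-ps had 36 and 59 counts, at −0.12 (−0.76 to 0.50). Of the 51-base words in the transcripts of Cyp2d9 and Cyp2d10, 28.34% and 39.86% occur in another gene's transcripts, so reads of Cyp2d copies are not assigned with certainty.

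Outside the Cyp2 family, 29 other Cyp genes had at least 10 counts. Of these 8 were at least 2-fold lower in KO and 5 at least 2-fold higher, with a median of −0.15, against 9.94% lower and 9.46% higher among all genes. Across all genes, log2 fold changes had a median of −0.13 for the 836 genes with a longest transcript under 1000 bases and 0.18 for the 706 genes of at least 8004 bases. Within the range of the members' lengths, 1590 to 4378 bases, 10.3% of 7475 genes were at least 2-fold lower and 8.92% at least 2-fold higher.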
